A study of Mus musculus with 25 samples.

Results

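The neuromuscular junction genes examined here are 10 genes chosen by name among the 50559 in the count table: *Colq*, *Agrn*, *Lrp4*, *Musk*, *Rapsn*, *Dok7*, *Chrna1*, *Chrnb1*, *Chrnd*, and *Chrne*. In ribosome-bound mRNA pulled down from mouse spinal cord cholinergic neurons, *Agrn*, *Dok7*, and *Colq* were the members with the highest levels per kilobase of exon. Of these, only *Colq* had a median level above that in whole spinal cord RNA. Of the receptor subunits, *Chrnd* had 0 counts and *Chrne* 3 over the 24 libraries, *Chrna1* had 49, and *Chrnb1* had 160. *Colq* was the only member called between genotypes. It was higher by 0.69 ± 0.12 (log2 ± SE, n = 6 per group) in *ChAT-BKO* mice than in controls in the light period and by 0.65 ± 0.12 in the dark period.

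At the junction, the motor nerve terminal releases acetylcholine onto receptors packed in the facing muscle membrane. Agrin from the nerve binds LRP4 on the muscle fiber, which activates the kinase MuSK, and DOK7 and rapsyn, inside the fiber, carry this signal to the clustered receptors. The adult receptor is built of the alpha, beta, delta, and epsilon subunits, which muscle fibers make. ColQ is the collagen tail that anchors acetylcholinesterase in the synaptic cleft. Motor neurons are the best known source of the agrin splice forms that cluster receptors, and muscle is the best known source of the receptor subunits, MuSK, rapsyn, and DOK7.

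All mice were males of 6 mo in which Cre driven from the *ChAT* locus switched on a hemagglutinin (HA) tag on ribosomes of cholinergic cells from 1 *RiboTag* allele (fx/+). Controls were *ChAT-Cre;RiboTag fx/+* mice, and *ChAT-BKO* mice carried in addition 2 floxed *Bmal1* alleles (fx/fx), so that the clock gene *Bmal1* was deleted in the same cells. Spinal cords were taken at Zeitgeber Time (ZT) 8, in the light period, or ZT20, in the dark period (6 mice per condition in 4 conditions), and tagged ribosomes were pulled down by HA immunoprecipitation (IP). An additional library, the pooled input, was made from whole spinal cord RNA of both genotypes. Cre in this line marks cholinergic interneurons and preganglionic neurons as well as motor neurons, and motor axon terminals and muscle fibers lie outside the tissue taken.

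IP libraries held 4035326 to 31685171 counts (median 11952397), and the input held 7396568. *Arntl*, the gene symbol of *Bmal1*, did not exceed 3.30 CPM (counts scaled by library size and composition) in any *ChAT-BKO* library and did not fall below 6.22 CPM in any control. All 6 cholinergic neuron markers were above the input, with a median log2 ratio of 3.35, while the lists of oligodendrocyte, astrocyte, microglia, endothelial and mural, fibroblast, and Schwann cell markers had medians between -3.99 and -2.05 with 0 genes above it. Of 20 skeletal muscle markers, 2 were above the input (*Myh7*, 0.77, and *Mybpc2*, 0.51, log2 ratio), and the list had a median of -2.51. Between conditions, a lower or higher level in such bulk libraries can be a changed mix of cells or a changed amount of RNA per cell. These cannot be told apart. The study counted fewer lumbar motor neurons in mice with this deletion, and states that neurodegeneration may also have affected its expression results.

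Sequences are shown for the 2 sides of the junction: the small exons that set the agrin splice form, and promoters of receptor genes. *Agrn* is on the minus strand of chr4:156165290-156197488 (GRCm38). Its transcripts in the GENCODE annotation hold exons of 12, 24, and 33 bases at chr4:156169546-156169557, chr4:156168546-156168569, and chr4:156167777-156167809. These are the y4, z8, and z11 exons, and the z exons give the neural form that clusters receptors. They occur in 2, 2, and 1 of 7 annotated transcripts. Each is given below in capitals, 5′ to 3′ on the coding strand, between the 15 spliced bases on either side.
y4 exon: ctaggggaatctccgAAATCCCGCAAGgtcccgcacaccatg
z8 exon: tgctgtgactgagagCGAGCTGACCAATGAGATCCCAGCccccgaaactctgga
z11 exon: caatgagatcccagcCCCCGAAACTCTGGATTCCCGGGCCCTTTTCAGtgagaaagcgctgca
The counts are per gene, so the *Agrn* values include transcripts with and without these exons.

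RefSeq promoter windows of 250 bases before the start (GRCm38.p6) were found for 6 of the 10 genes (*Agrn*, *Musk*, *Dok7*, *Chrna1*, *Chrnb1*, and *Chrne*). The 3 receptor windows are shown because muscle-restricted transcription of these genes is classically assigned to E-boxes, bound by myogenic factors, and to the N-box, bound by ETS factors. Capitals mark each CANNTG (E-box) and CCGGAA (N-box core), searched on both strands.
*Chrna1*, chr2:73580339-73580588, minus strand: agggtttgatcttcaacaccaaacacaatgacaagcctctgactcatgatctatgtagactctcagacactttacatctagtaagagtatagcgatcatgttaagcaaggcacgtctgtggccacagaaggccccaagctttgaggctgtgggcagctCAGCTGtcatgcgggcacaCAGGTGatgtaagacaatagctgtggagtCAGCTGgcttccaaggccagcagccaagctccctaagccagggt
*Chrnb1*, chr11:69795938-69796187, minus strand: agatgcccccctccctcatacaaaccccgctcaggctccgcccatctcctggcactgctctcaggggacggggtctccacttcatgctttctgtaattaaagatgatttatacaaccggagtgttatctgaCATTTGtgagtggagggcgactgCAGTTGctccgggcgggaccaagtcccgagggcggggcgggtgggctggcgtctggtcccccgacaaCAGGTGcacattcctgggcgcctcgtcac
*Chrne*, chr11:70619195-70619444, minus strand: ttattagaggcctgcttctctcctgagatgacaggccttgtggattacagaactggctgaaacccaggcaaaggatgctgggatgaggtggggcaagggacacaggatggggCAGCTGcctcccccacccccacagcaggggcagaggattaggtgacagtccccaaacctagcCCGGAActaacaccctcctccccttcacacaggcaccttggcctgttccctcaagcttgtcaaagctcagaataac
The *Chrna1* and *Chrnb1* windows each hold 3 CANNTG matches and 0 CCGGAA, and the *Chrne* window holds 1 CANNTG and 1 CCGGAA. Among 32851 promoter windows, 66.2% hold at least 1 CANNTG and 12% a CCGGAA. The clock E-box CACGTG, a form of CANNTG that BMAL1 binds, is in 6.02% of all windows and in 0 of the windows of these 6 genes. At that share, absence from so few windows is not informative. No window was found for *Colq*, so its promoter was not searched.

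Per kilobase of exon, so that genes can be compared, only the 3 highest members had ranges separate from those of all others. *Agrn* was highest at 8.04 ± 0.71 CPM per kb (mean ± SD, n = 24 libraries), followed by *Dok7* at 4.08 ± 0.479 and *Colq* at 1.80 ± 0.479, and in 24 of 24 libraries each of these stood above the next. *Rapsn* (0.324 CPM per kb), *Lrp4* (0.22), and *Chrnb1* (0.212) came next with overlapping ranges. *Rapsn* was above *Lrp4* in 16 of 24 libraries and *Lrp4* above *Chrnb1* in 15 of 24. *Chrna1* (0.0369 CPM per kb), *Musk* (0.00646), *Chrne* (0.00234), and *Chrnd* (0) came last, and their ranges overlapped too. The range of *Chrna1*, up to 0.118 CPM per kb, also overlapped those of *Rapsn* (from 0.0526), *Lrp4* (from 0.0976), and *Chrnb1* (from 0). *Chrnb1* was above *Chrna1* in 23 of 24 libraries. Over the 18934 tested genes with a length, the median was 1.62 CPM per kb, which put *Agrn* at the 75th percentile, *Dok7* at the 64.2 and *Colq* at the 51.6 percentile, and *Chrna1* at the 7.61 percentile. The IP libraries also held RNA of other cell types. *Mbp*, an oligodendrocyte marker, had a mean of 958 CPM in them at a log2 ratio to the input of -3.36. The part of such RNA in the levels of the members was not tested.

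**Figure D1:**
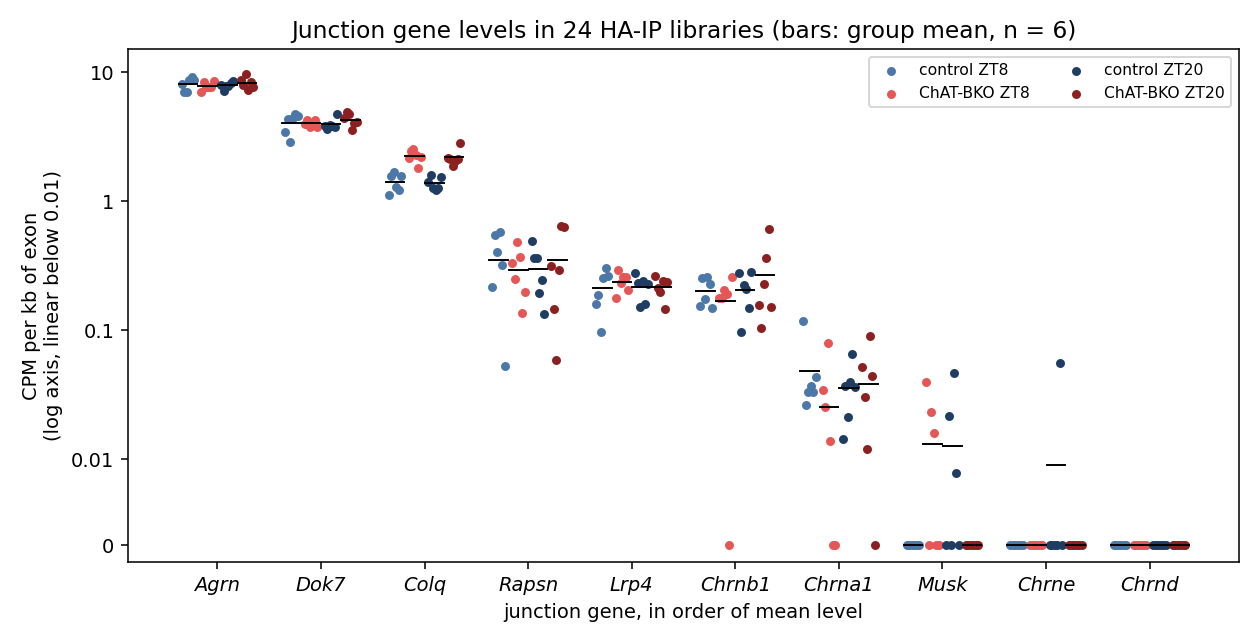
Level of each junction gene in each of the 24 IP libraries, in CPM per kilobase of exon, on an axis that is logarithmic above 0.01 and linear below it. Points are libraries colored by genotype and time and bars are means of 6. *Agrn*, *Dok7*, and *Colq* lie above all other members in every library, and *Chrnd* is at 0 in all 24.

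The receptor subunits were thinly counted. *Chrna1*, the acetylcholine-binding alpha subunit (chr2:73563215-73580338), had 49 counts over 21 of the 24 libraries, and its level ran from 0 to 0.517 CPM. *Chrnb1*, the beta subunit (chr11:69784036-69795943), had 160 counts in 23 of 24 libraries and ran from 0 to 1.54 CPM. *Chrne*, the subunit of the adult receptor (chr11:70614883-70619216), had 3 counts, all in replicate 5 of the controls at ZT20, the deepest library. *Chrnd*, the delta subunit (chr1:87190607-87200070), had 0 counts in the 24 IP libraries and in the input, which allows up to 0.00986 CPM over the IP libraries together (3 counts). This limit and those per library, 0.0947 to 0.743 CPM, cover counting error only.

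At these depths, *Chrne* and *Chrnd* could not be compared between conditions, and *Chrna1* and *Chrnb1* were compared on few counts. In the input, *Chrna1* had 2 and *Chrnb1* 6 counts, and *Chrne* 0. *Chrng*, the subunit of the fetal receptor, was at 0 in every library.

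The muscle-side signaling genes differed widely among themselves. *Musk*, the kinase of the receptor complex (chr4:58285960-58374303), had 8 counts in 6 of 24 IP libraries, at most 2 per library, and 4 counts in the input. *Lrp4*, the agrin receptor (chr2:91457511-91513779), was at 1.03 to 3.19 CPM in the IP libraries and 26.3 CPM in the input, a median log2 ratio of -3.33 that fell in the lowest 2.36% of the 14954 genes with at least 10 input counts. *Lrp4* was below the input in 24 of 24 libraries. Its ratio was close to the median of the oligodendrocyte markers (-3.24), and whether its IP counts came from cholinergic neurons was not tested. *Rapsn*, which encodes the receptor scaffold (chr2:91035620-91045729), was at 0.0948 to 1.16 CPM in IP against 1.60 CPM in the input, a median log2 ratio of -1.24 with no library above it.

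*Rapsn* counts are uncertain because the gene overlaps *Gm13778* on the other strand. In 23 of the 25 libraries its deposited count was not whole, while the sum of the 2 genes was whole, within 0.011 counts, in 25 of 25. The deposited counts summed to 170.4 for *Rapsn* and 153.6 for *Gm13778* over the IP libraries, and the summed pair had a log2 ratio to the input of -1.90. *Colq* overlaps *Gm24057* and *Gm49387* on its own strand, and *Chrne* overlaps *4930544D05Rik* on the other strand. Of the deposited *Colq* and *Chrne* counts, 0% were not whole.

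*Dok7*, whose product activates MuSK from inside the cell (chr5:35056766-35087839), stood apart from these muscle-side genes. It had 5323 counts over the IP libraries, between 75 and 510 per library, and a level of 12.3 to 20.9 CPM. Its 28.5 CPM in the input was higher, so that the log2 ratio was -0.72 (range -1.17 to -0.43) and 0 of 24 libraries were above the input.

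*Agrn*, the organizer that motor neurons supply, was at 64.9 to 90.1 CPM in the IP libraries, with a mean of 74.7 ± 6.6 (SD, n = 24). The input was at 84.3 CPM (95% Poisson interval 78.8 to 90.2). The median log2 ratio was -0.17, with 2 of 24 libraries above the input, close to the median of -0.09 over the 14954 genes, of which 47% were above it. This placed *Agrn* at the 47.9 percentile of these genes.

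*Colq*, on the minus strand of chr14:31523082-31591343, was the only member with a median above the input, at a log2 ratio of 0.96 (82.6 percentile) and above it in 24 of 24 libraries. In control libraries alone the median was 0.58, with ratios of 0.317 to 0.923 at ZT8 and 0.445 to 0.831 at ZT20. In *ChAT-BKO* libraries the ratios were 0.993 to 1.47 at ZT8 and 1.06 to 1.61 at ZT20. The input rests on 34 *Colq* counts in 1 library (3.40 CPM, 95% Poisson interval 2.36 to 4.75), and on this scale the lowest IP library, at 4.28 CPM, lies within that interval. Scaled by raw totals, the median was 0.52 and the lowest ratio was -0.135. The input pooled both genotypes, so no genotype has an input of its own.

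**Figure D2:**
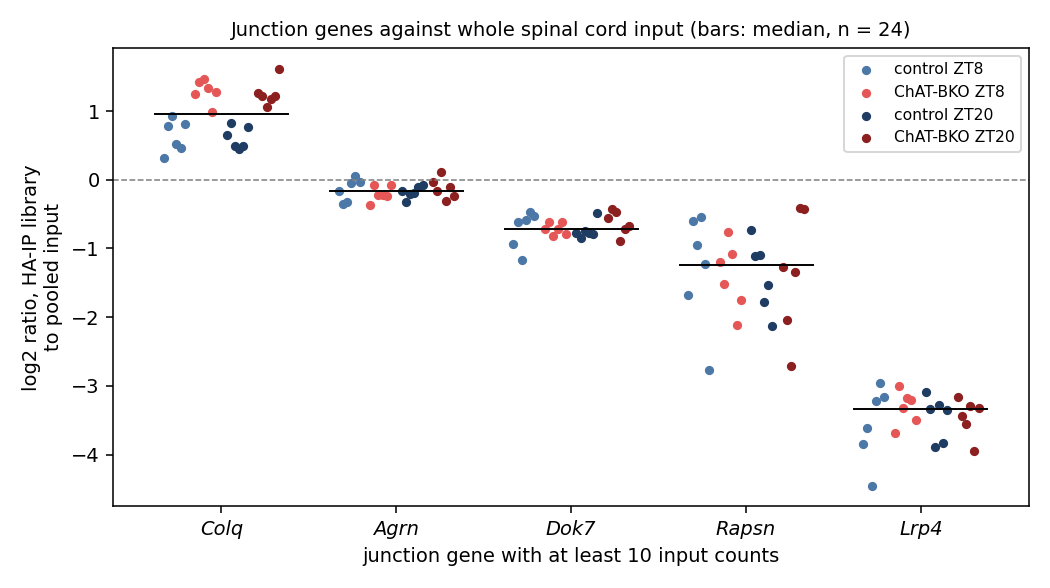
Log2 ratio of each IP library to the pooled input for the 5 junction genes with at least 10 input counts. Points are the 24 libraries colored by genotype and time, and bars are medians. *Colq* is above 0 in 24 of 24 libraries, *Agrn* has a median of -0.17, and *Lrp4* lies at or below -2.95.

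Whether deletion of *Bmal1* changed these genes was tested at each time with edgeR's quasi-likelihood test, with adjustment over 21738 genes. Of the 10 members, 7 had the 10 summed counts needed, and *Musk*, *Chrnd*, and *Chrne* did not. At ZT8, 1 of the 7 was called (adjusted p under 0.05) against 0.184% of all genes, and at ZT20 1 of the 7 against 0.23%. In both cases it was *Colq*, which the study had itself singled out from these samples, so its call is not independent evidence.

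In controls at ZT8, *Colq* ran from 4.26 to 6.44 CPM with a median of 5.41. In *ChAT-BKO* libraries at ZT8 it ran from 6.85 to 9.59 CPM with a median of 8.56. Each of the 6 *ChAT-BKO* libraries was above all 6 controls. The log2 fold change was 0.69 (SE 0.12, 95% interval 0.43 to 0.94, edgeR adjusted p = 0.0189).

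At ZT20, *Colq* ran from 4.63 to 6.11 CPM in controls, with a median of 5.05, and from 7.18 to 10.7 CPM in *ChAT-BKO* libraries, with a median of 8.07. The groups again did not overlap. The log2 fold change was 0.65 (SE 0.12, 95% interval 0.39 to 0.90, edgeR adjusted p = 0.0240). An exact two-sided permutation test of the log2 values gave p = 0.00216 at each time, the smallest p that 6 against 6 allows. This p was not adjusted over the members tested. Averaged over both times in a fit of all 24 libraries, a comparison added after seeing the data, which called 0.653% of all genes, the difference was 0.67 (SE 0.0818, 95% interval 0.50 to 0.84, adjusted p = 5.69e-06). All 12 *ChAT-BKO* libraries (lowest 6.85 CPM) were above all 12 controls (highest 6.44 CPM), with means of 8.43 ± 1.04 and 5.30 ± 0.723 CPM (SD).

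**Figure D3:**
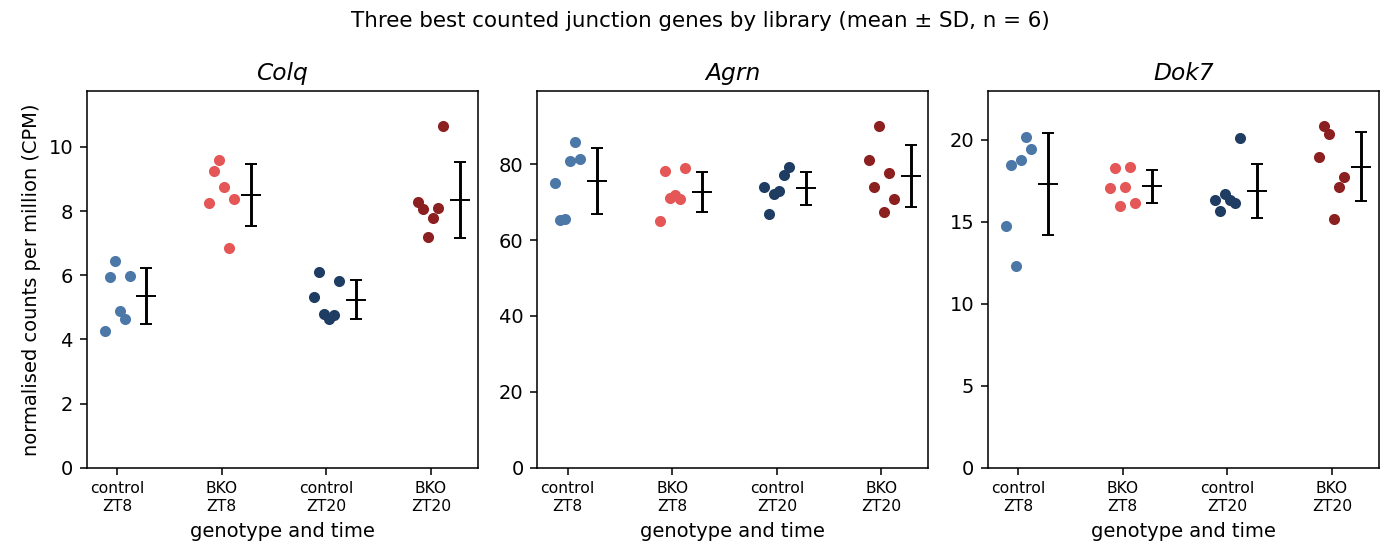
Normalized CPM of *Colq*, *Agrn*, and *Dok7* in each IP library of the 4 conditions, with mean ± SD beside the points (n = 6). *Colq* in *ChAT-BKO* lies above every control at both times, whereas the *Agrn* and *Dok7* groups overlap.

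The call on *Colq* at 1 time rests on a small margin. At ZT8 it was lost when *ChAT-BKO* replicate 2 (adjusted p = 0.0629) or 3 (0.0787), or control replicate 1 (0.0564) or 4 (0.0817), was left out, with log2 fold changes of 0.64 to 0.73 over all 12 omissions. At ZT20 it was lost without *ChAT-BKO* replicate 1 (edgeR adjusted p = 0.0848), 2 (0.0532), or 6 (0.0556), or control replicate 1 (0.0514), 3 (0.0732), 4 (0.0787), or 5 (0.0977), with log2 fold changes of 0.58 to 0.70. Averaged over both times, it passed without any of the 24 libraries, with edgeR adjusted p-values of 4.74e-06 to 2.42e-05. DESeq2, which called 0.442% of its genes at ZT8 and 0.56% at ZT20, called *Colq* at both times, with adjusted p-values of 0.000135 and 0.000753. So did limma voom, which called 0.202% and 0.221% (adjusted p-values of 0.00775 and 0.00959).

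Muscle also makes ColQ, and skeletal muscle markers moved with genotype at ZT20. Their summed level at ZT20 was 29.3 to 53.4 CPM in controls, with a median of 35.4, and 26.4 to 129 CPM in *ChAT-BKO*, with a median of 96.1. At that time 3 of the 20 markers were called, all higher: *Tnnt3*, a fast troponin (log2 fold change 2.40, adjusted p = 0.0423), *Tnnc2*, another (2.24, 0.0463), and *Acta1*, skeletal actin (2.20, 0.0495). The share called over all genes was 0.23%. Of the 20 markers, 17 had a positive log2 fold change, and the median was 1.87. In either direction, 15 had an unadjusted edgeR p under 0.05, against 1366 of 21738 genes. *Myh7*, the marker with the highest level (mean 13.2 CPM), had a log2 fold change of -0.31 (adjusted p = 0.279). No marker was at 0 in all IP libraries.

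At ZT8 the summed level of the muscle markers was 27.4 to 144 CPM in controls, with a median of 51.7. In *ChAT-BKO* it was 25.5 to 210 CPM, with a median of 30.8. Of the 20 markers, 0 were called, against 0.184% of all genes. With the mean log2 level of the muscle markers as a covariate, the *Colq* difference was 0.71 in the light period (adjusted p = 0.0172). In the dark period it was 0.54 and no longer called (adjusted p = 0.396). All genes called in the dark period went from 50 to 21 with this covariate. Its median there was -0.00645 in controls and 1.48 in *ChAT-BKO*. Averaged over both times, the *Colq* difference was 0.65 with the covariate (adjusted p = 1.04e-05). The part of muscle RNA in the *Colq* difference was not tested beyond this covariate.

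Across the 24 IP libraries, with condition means removed, *Colq* and the muscle marker level had a Pearson r of 0.424 (permutation p = 0.0581, adjusted 0.174 over 3 relations) and a Spearman rho of 0.436 (permutation p = 0.0531, adjusted 0.0796). Without the 2 libraries farthest from the median marker level (*ChAT-BKO* replicate 4 at ZT8 and 3 at ZT20), r was 0.585. Within the 12 controls r was 0.832 (permutation p = 0.00392), and within the 12 *ChAT-BKO* libraries 0.119 (permutation p = 0.745). *Agrn* had r = -0.0235 (permutation p = 0.921) and rho = -0.0991 (permutation p = 0.681). The mean log2 level of *Musk*, *Rapsn*, and the receptor subunits had r = -0.291 (permutation p = 0.264) and rho = -0.447 (permutation p = 0.0426, adjusted 0.0796). Of these genes, *Chrnd* had 0 counts over the 24 libraries, *Chrne* 3, *Musk* 8, and *Chrna1* 49. Such counts are too few to show whether these genes moved with the muscle markers.

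*Agrn* differed between genotypes by less than the spread between libraries. At ZT8 it ran from 65.2 to 85.9 CPM in controls (median 78) and from 64.9 to 78.9 CPM in *ChAT-BKO* (median 71.4), and at ZT20 from 66.8 to 79.3 CPM (median 73.4) and from 67.3 to 90.1 CPM (median 75.9). The log2 fold changes were -0.05 (SE 0.0767, adjusted p = 1) and 0.06 (SE 0.0684, adjusted p = 0.922). The averaged difference had a 95% interval of -0.10 to 0.11 on the log2 scale, which is the narrowest among the members.

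*Dok7* overlapped between genotypes as well. At ZT8 it ran from 12.3 to 20.2 CPM in controls (median 18.6) and from 16.0 to 18.4 CPM in *ChAT-BKO* (median 17.1). At ZT20 the ranges were 15.6 to 20.1 CPM (median 16.3) and 15.2 to 20.9 CPM (median 18.3). The log2 fold changes were -0.03 (SE 0.103, adjusted p = 1) and 0.13 (SE 0.0895, adjusted p = 0.868), and the averaged interval was -0.09 to 0.19.

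*Lrp4*, *Rapsn*, *Chrnb1*, and *Chrna1* were too thinly counted for a narrow interval. *Lrp4* had log2 fold changes of 0.15 at ZT8 (95% interval -0.31 to 0.62) and 0.03 at ZT20 (-0.38 to 0.45), with medians of 2.32 and 2.57 CPM in controls and *ChAT-BKO* at ZT8 and of 2.42 and 2.36 CPM at ZT20. *Rapsn* had -0.29 (-1.15 to 0.56) and -0.04 (-0.99 to 0.92). *Chrnb1* had -0.15 (-0.91 to 0.60) and 0.27 (-0.57 to 1.12), and *Chrna1* -0.75 (-2.21 to 0.71) and -0.04 (-1.22 to 1.13). All 8 adjusted p-values were 0.948 or above, and every pair of groups overlapped. The ZT20 values of *Lrp4*, *Rapsn*, *Chrna1*, *Dok7*, *Agrn*, and *Chrnb1* changed sign in at least 1 alternative or omission, so no direction is given for them.

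**Figure D4:**
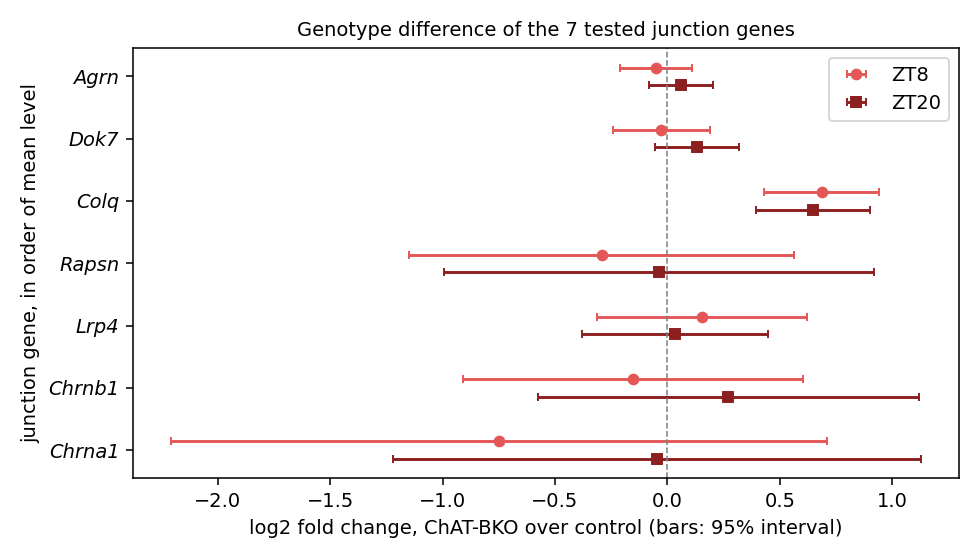
Log2 fold change of *ChAT-BKO* over control for the 7 tested junction genes at ZT8 (circles) and ZT20 (squares), with 95% intervals from the edgeR fit. The intervals of *Colq* lie above 0 at both times, and those of the other 6 genes include 0.

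No member was called for a time difference or for a change of the genotype effect with time. The difference of the *Colq* effects, ZT20 minus ZT8, was -0.03 (SE 0.164, 95% interval -0.36 to 0.31, adjusted p = 1). edgeR called 0% of genes in that comparison, in which 848 genes had an unadjusted p under 0.05, and DESeq2 and limma voom called 0 too, with 565 and 1029 such genes. From ZT8 to ZT20, *Colq* differed by -0.04 in controls (SE 0.13, adjusted p = 0.975) and by -0.07 in *ChAT-BKO* (SE 0.114, adjusted p = 0.922). These comparisons called 0.115% and 0.285% of all genes. The other 6 members had adjusted p-values of at least 0.899 in controls and 0.745 in *ChAT-BKO*, and their log2 differences ran from -0.34 to 0.48.

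Other genes of the junction were examined as a list of 28, of which all but *Chrng* were tested. Against the input, 8 of the 28 were higher and the median log2 ratio was -1.08. *Ache*, the esterase that ColQ anchors at the junction, was at 918 to 1140 CPM and a ratio of 2.47, and *Prima1*, which anchors the same enzyme in neurons, was at 145 to 183 CPM and 1.44. *Nrg1*, the nerve-derived neuregulin, was at 135 to 184 CPM and 1.47, and *Plec* (1.74) and *Cttn* (1.3), which encode cytoskeletal proteins, were also above it. *Erbb3*, a neuregulin receptor (-3.40), *Lamb2*, the synaptic laminin chain (-2.59), and *Bche*, butyrylcholinesterase (-3.87), were below it.

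Between genotypes, 0 of the 27 were called at either time, against 0.184% of all genes at ZT8 and 0.23% at ZT20. At an unadjusted p under 0.05 there were 1 at ZT8 and 4 at ZT20, against 1051 and 1366 of 21738 genes. The list had median log2 fold changes of -0.01 and 0.10. The 3 with the smallest adjusted p were *Etv5*, an ETS factor (log2 fold change 0.22 at ZT20, adjusted p = 0.538), *Hspg2*, perlecan (0.40, 0.726), and *Prima1* (-0.11, 0.763). *Ache*, the partner of ColQ, had medians of 1080 and 1030 CPM in controls and *ChAT-BKO* at ZT8 and of 1030 and 997 CPM at ZT20.

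Among libraries, members of 1 biological pathway did not all move together once condition means were removed from the log2 levels. *Dok7* had a Pearson r of 0.607 with *Lrp4* and 0.576 with *Agrn*, and *Agrn* and *Lrp4* had 0.386, while *Colq* had -0.36 with *Agrn* and -0.156 with *Dok7* (n = 24 libraries, as a description). The genes most like *Colq* on the same measure, among 13720 with a mean of at least 1 CPM, were *Ube2d1* (r = 0.78), *Hoxa5* (0.726), *Lzts2* (0.715), *Kyat1* (0.706), and *Vstm2b* (0.703). These values are the highest of 13720 correlations over 24 libraries and were not tested. The genes most like *Chrna1* were *Pinx1* (0.755), *Fam174c* (0.745), *Emc7* (0.699), *1110046J04Rik* (0.689), and *Gnpnat1* (0.68). *Chrna1* had at most 9 counts in a library, so that these are weak descriptions of sparse counts.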

How the data were processed

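The 10 junction genes and all gene lists were chosen with earlier results of these data known. HA-tagged ribosomes of spinal cord cholinergic neurons were immunoprecipitated from 6 mice in each of 4 conditions, and 1 pooled input was sequenced with them. Per the methods and labels, the authors prepared stranded mRNA libraries, aligned reads to mm10 with STAR 2.7.5, and estimated gene counts with RSEM 1.3.0 on Ensembl 98. The values are expected counts as deposited by the authors, unnormalized, with 6.11% not whole, and were rounded to whole numbers here. RSEM assigns reads shared by genes in fractions, and whether strand was used in counting is not given in the sources used here. Replicates were called biological replicates by the labels.

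Genes with at least 10 counts over the 24 IP libraries were tested (21738 genes) in R 4.3.3 with edgeR 4.0.16 (TMM, quasi-likelihood, two-sided, Benjamini-Hochberg adjustment, calls at 0.05). DESeq2 1.42.0 and limma 3.58.1 were alternatives. CPM used TMM-scaled library sizes, log2 ratios to the input added 2 prior counts scaled to library size, and input intervals were exact Poisson intervals of counting error. Levels per kb used exon lengths of GENCODE M21 (GRCm38). Relations used 100000 permutations. All 10 members were named, with the 3 skeletal muscle genes of highest mean level, other junction genes called or with the 3 smallest adjusted p, and the 5 genes most like *Colq* and *Chrna1*. *Mybpc2*, *Tnnc2*, *Mbp*, and other junction genes given for their level were chosen after their values were seen. A result on an item of the junction list across time is not reported here. The script was tested on simulated data. In the 4 two-group comparisons, 0 to 3 of 6 pairs with the same replicate number had a correlation over 0.1 (highest 0.356). No replicate block was used in the main fit. Between replicates, chi-square per degree of freedom was 1.86 to 27.8 over the 60 pairs, above sampling noise in each.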

Additional observations from a re-analysis of the deposited data

Results flagged for a closer look

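In 28 groups of 6 libraries (7 tested members in 4 conditions), 4 had 1 library set apart from the other 5 by Dixon's 95% limit. For normally distributed values, chance flags about 1 in 20 groups. That rate does not hold for groups of a few counts, such as those of *Chrna1* and *Chrnb1*. *Colq* was at 10.7 CPM in *ChAT-BKO* replicate 6 at ZT20 (56 counts), where the next library was at 8.28 CPM, and the call at ZT20 was lost without it (edgeR adjusted p = 0.0556). *Dok7* was at 20.1 CPM in control replicate 6 at ZT20 (252 counts), with the next at 16.7 CPM. *Chrna1* was at 0.517 CPM in control replicate 1 at ZT8, from 4 counts, with the next at 0.19 CPM. *Chrnb1* was at 0 counts in *ChAT-BKO* replicate 5 at ZT8, where the next library was at 0.449 CPM. The causes were not tested.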

How the results depend on the processing

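*Colq* was called at both times with 8 of the 10 alternatives that apply there. At an adjusted p under 0.01, 0 members were called at ZT8 and 0 at ZT20, against 1 at each in the main result. Of all 21738 genes, 18 and 25 passed this threshold. With the skeletal muscle covariate, 0 members were called at ZT20, where all genes called went from 50 to 21. Leaving out 1 library gave 0 to 1 called members at ZT8 and 0 to 1 at ZT20, and 1 in every omission for the averaged effect. All genes called over these omissions ran from 19 to 42 at ZT8 and from 29 to 69 at ZT20. With a replicate block the number of called members stayed 1 at each time, with *Colq* at an adjusted p of 0.00828 and 0.0185. Whether the numbers mark mice handled together is not given in the sources used here. In the 4 two-group comparisons, 1, 1, 2, and 0 of 6 samples correlated best with their own number. All genes called went from 40 to 69 at ZT8 and from 50 to 61 at ZT20 under the block, and to 164 and 168 with the transcript length slope. Between times, they went from 25 to 86 in controls and from 62 to 47 in *ChAT-BKO* under the block. Several uncalled ZT20 values changed sign. With the muscle covariate they were -0.0274 (*Agrn*), -0.00257 (*Lrp4*), 0.136 (*Rapsn*), -0.0184 (*Dok7*), and 0.576 (*Chrna1*), and *Colq* between times in controls was 0.0288. *Rapsn* was 0.0512 with DESeq2, 0.0222 with voom, 0.173 with the length slope, and 0.0208 summed with *Gm13778*, an alternative chosen after seeing the data. *Chrna1* was 0.15 with the block, 0.0634 with voom, and 0.19 with the length slope. Over single omissions the log2 fold changes at ZT20 ran from -0.0641 to 0.131 (*Lrp4*), -0.27 to 0.311 (*Rapsn*), -0.395 to 0.322 (*Chrna1*), and -0.0168 to 0.428 (*Chrnb1*), *Dok7* at ZT8 from -0.0981 to 0.0099, the *Colq* interaction from -0.0952 to 0.02, and *Colq* between times in controls from -0.0893 to 0.0092. Scaled by raw totals, the log2 ratios to the input were 0.524 (*Colq*), -0.615 (*Agrn*), -3.79 (*Lrp4*), and -1.18 (*Dok7*). The relation of muscle markers was 0.832 with *Colq* in controls and 0.338 with *Agrn* in *ChAT-BKO*. Apart from the alternatives' own construction, the causes were not tested. Counts of a few reads per library limit the receptor genes, and 1 input library limits every ratio to it.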
